A study of Rattus norvegicus with 8 samples.

Results

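Astrocytes are the glial cells that take up glutamate and potassium around synapses, and rat hippocampal neuron cultures usually contain them beside the neurons. A set of 34 genes was listed for these cells, in 3 classes: 26 genes of mature astrocytes, 4 of progenitor-like cells (Fabp7, Vim, Nes and Sox2) and 4 of reactive astrocytes (Gfap, Lcn2, Cd44 and Vcam1). By their symbols in the authors' deposited table, 33 of the 34 were matched to gene identifiers, among 32623 annotated genes. The deiodinase gene Dio2 had no match and was not analysed here. The connexin 30 gene Gjb6 was matched but did not pass the filter on low counts, which left 32 tested genes, 24 mature, 4 progenitor-like and 4 reactive.

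The cultures were hippocampal neurons of wild-type SD rats, harvested on day 18 in vitro for sequencing of polyadenylated RNA. One group (PAM, 4 libraries) received a modulator that binds the NMDA receptor outside its agonist sites and strengthens its response, and the other (vehicle, 4 libraries) received the carrier. The labels name neither compound, dose and duration nor the share of glia. They do not describe replicates as separate cultures, and p-values then measure a spread that may be technical.

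Astrocytes develop from radial glia, which carry the intermediate filament proteins vimentin and nestin and the fatty acid binding protein Fabp7. Mature astrocytes couple through connexins, place the water channel aquaporin-4 at their endfeet, make glutamine from glutamate and secrete lipid carriers and synapse-organising proteins. After injury or inflammation they become reactive, a state long recognised by raised GFAP and vimentin and, in rodents, by secretion of lipocalin-2. None of these genes is absolutely specific: neurons or microglia also express Apoe, Cst3 and Clu, ependymal cells express S100b and Vim, and fibroblasts or endothelial cells can express Vim, Nes, Cd44 and Vcam1.

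Between 2960406 and 4389430 counts were assigned to genes per library. At these depths, 3 counts, the upper limit for a gene with none, correspond to 0.684 to 1.01 CPM (counts scaled by effective library size), which covers counting error only. PAM 3 and PAM 4 stood apart in the slope of gene levels on exonic length, at -0.0853 and -0.132 log2 units per doubling, against 0.00524 to 0.0627 in the other 6 libraries. Values without both are therefore given where leaving them out made or ended a call or moved a value by over 1.5 times. No exon of the 33 matched genes shared bases with another annotated gene.

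Most of these astrocyte genes were higher in PAM than in vehicle libraries, and the lipocalin-2 gene was lower. Of the 32 tested genes, 24 rose and 1 fell (edgeR's quasi-likelihood test with Benjamini-Hochberg adjustment over 11740 genes, adjusted p under 0.05). Over all tested genes 9.00% rose and 9.89% fell, 18.9% in either direction. The 4 largest increases, each over 2-fold, were those of Pla2g7, Cst3, Gpr37l1 and Vim, and the single decrease, of Lcn2, was a fall to 0.448 of the vehicle level. The 32 genes had a median log2 fold change of 0.68 (PAM over vehicle), against 0.02 over all tested genes. For 24 of the 32, PAM and vehicle libraries did not overlap, against 22.3% of all tested genes. Because the RNA is from whole cultures, more cells of a type and more RNA per cell cannot be told apart.

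**Figure D1:**
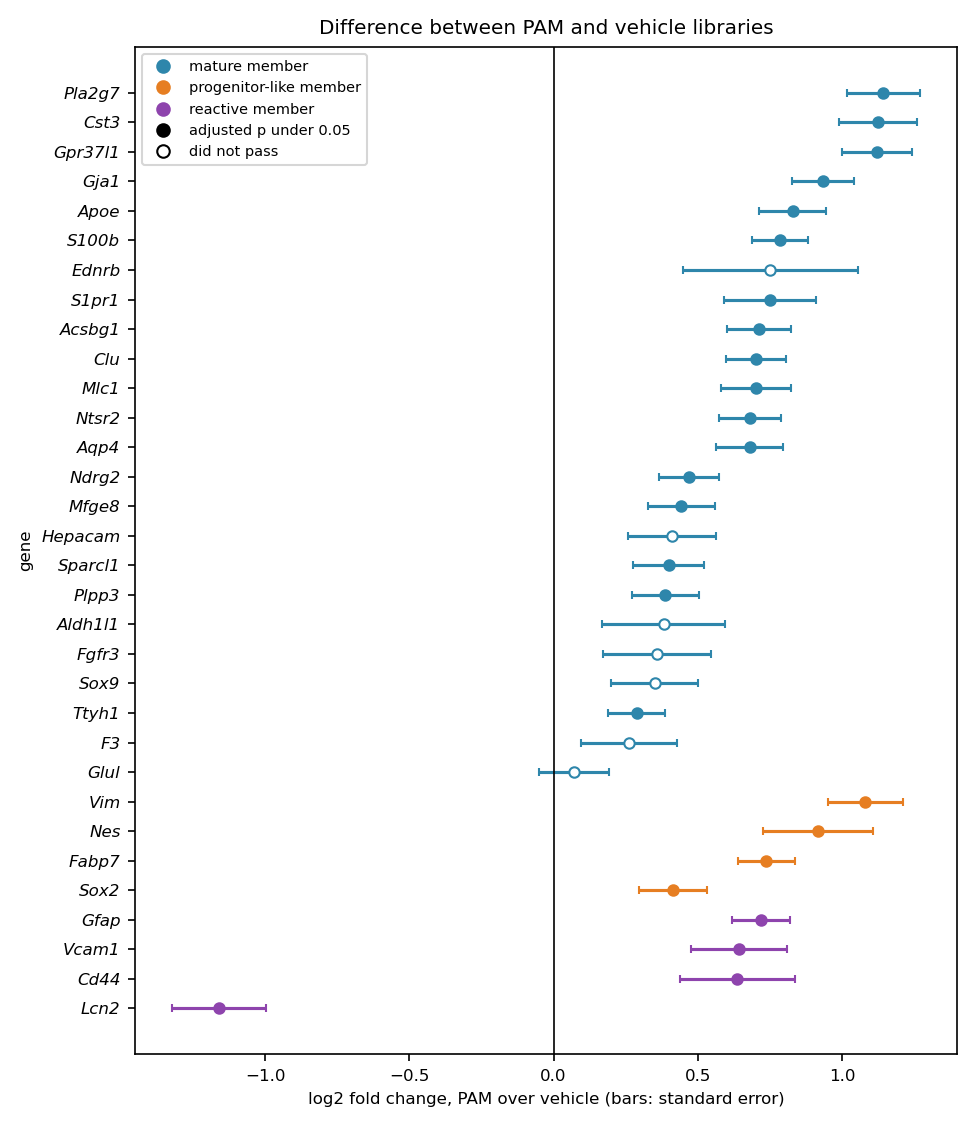
Log2 fold change of each of the 32 tested genes, PAM over vehicle, with its standard error from edgeR (4 PAM and 4 vehicle libraries). Filled points passed the test at an adjusted p under 0.05; all points but Lcn2, at -1.16, lie to the right of 0.

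By class, 17 of the 24 tested mature genes rose and 0 fell, with a median log2 fold change of 0.68. All 4 progenitor-like genes rose, with a median of 0.83. Of the 4 reactive genes 3 rose and 1 fell, with a median of 0.64. Together the 33 matched genes took 3.63% to 4.11% of all counts in PAM libraries and 2.11% to 2.25% in vehicle libraries. Mature genes summed to 26428 to 32383 CPM in PAM and 16637 to 18043 CPM in vehicle libraries. For progenitor-like genes the sums were 3051 to 3809.6 CPM in PAM and 1614 to 1977 CPM in vehicle libraries, and for reactive genes 4309.6 to 5497 CPM in PAM and 2914 to 3285 CPM in vehicle libraries, so that none of the 3 sums overlapped between the groups. Gfap made up most of the reactive sum, at 4622 ± 513 CPM in PAM and 2807 ± 153 CPM in vehicle libraries, so this sum does not show Lcn2, at 140.0 ± 36.4 CPM in PAM and 314 ± 45.3 CPM in vehicle libraries. Without PAM 3 and PAM 4, 30 of the 32 genes rose and Lcn2 fell, and the class medians were 0.65, 0.68 and 0.74. In that fit 1374 of 12253 tested genes rose (11.2%) and 1526 fell.

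Levels of different genes were compared per unit of exonic length, as TPM computed from the counts, and differences between groups as CPM. The secreted protease inhibitor gene Cst3 (cystatin C) was the most abundant member, at 20115 ± 2326 TPM in PAM and 9646 ± 717 TPM in vehicle libraries (SD, n = 4 each). Apoe, whose product carries lipids between brain cells, was second at 7293 ± 609 TPM in PAM and 4261 ± 315 TPM in vehicle libraries. These 2 genes alone made up 41.0% to 54.2% of the members' counts in PAM libraries and 38.3% to 44.2% in vehicle libraries. Clu, Fabp7 and Gfap followed in vehicle libraries, where only these 5 genes averaged over 1000 TPM. Clu and Fabp7, and Fabp7 and Gfap, had overlapping ranges there.

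The lower end held genes often used to identify astrocytes. Aldh1l1, a folate enzyme gene and a standard pan-astrocyte marker, was at 15.1 ± 3.55 TPM in PAM and 11.9 ± 2.76 TPM in vehicle libraries. Gjb6 was barely detected, with 4, 4, 1 and 0 counts in PAM 1 to 4 and 5, 0, 7 and 0 counts in vehicle 1 to 4. The other astrocyte connexin gene, Gja1 (connexin 43), averaged 193 ± 42.1 TPM in PAM and 103 ± 7.94 TPM in vehicle libraries. In the order of levels, 29 of 32 neighbouring pairs overlapped in range in PAM libraries and 20 of 32 in vehicle libraries.

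**Figure D2:**
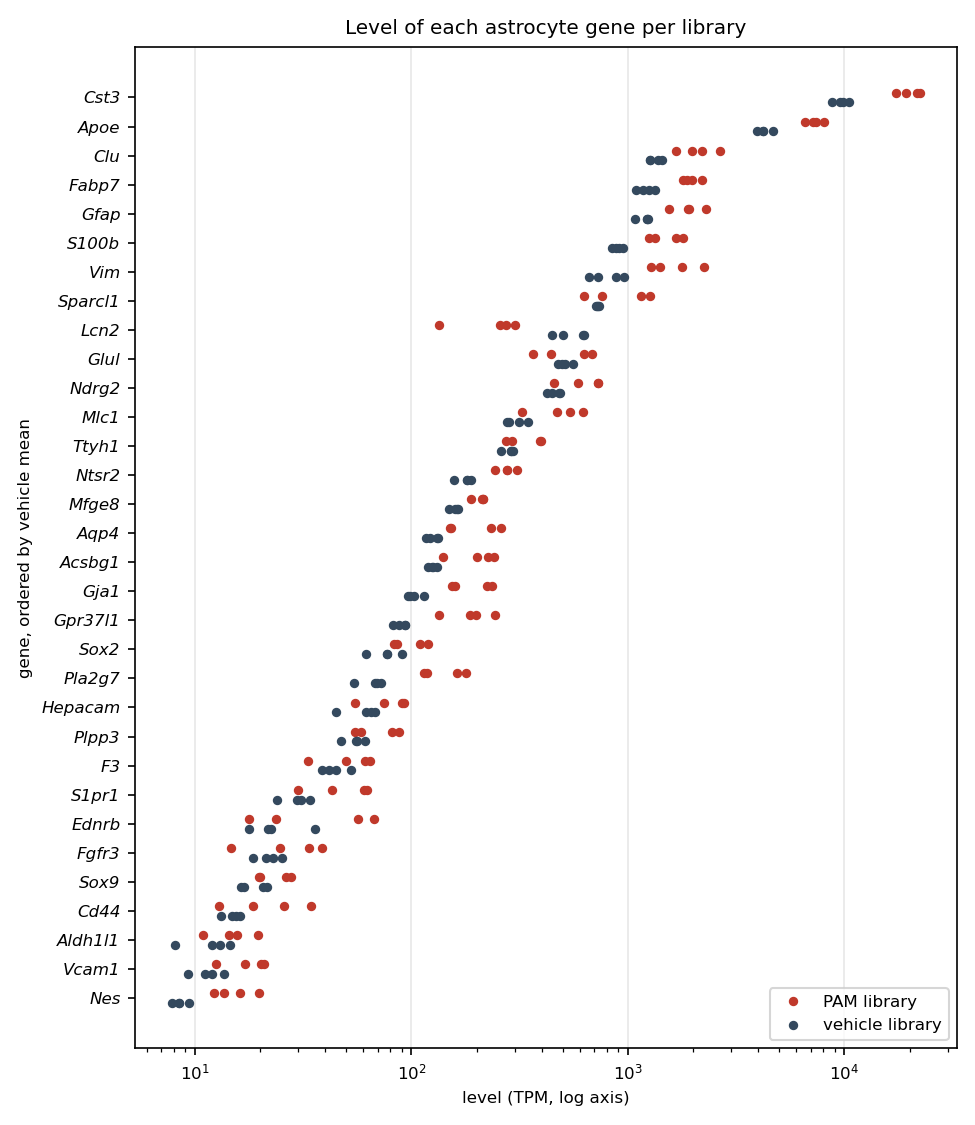
Level of each matched gene in TPM on a log axis, ordered by its vehicle mean, with 1 point per library (PAM above vehicle in each row). Gjb6 is left out because 3 of its libraries are at 0; Cst3 and Apoe lie above all other genes, and Lcn2 is the gene whose PAM points lie left of its vehicle points.

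Among the genes of the astrocyte endfoot and its junctions, Gja1, Aqp4 and Mlc1 rose, Hepacam did not pass and Gjb6 was not tested. The gap junction gene Gja1 (ENSRNOG00000000805; Rnor_6.0 chromosome 20, 37876650 to 37889089, plus strand) had 431, 430.3, 347 and 366 CPM in PAM 1 to 4, against 223, 203, 196 and 202 CPM in vehicle 1 to 4. Every PAM library lay above every vehicle library, and the log2 fold change was 0.93 ± 0.11 (SE; edgeR with Benjamini-Hochberg adjustment, adjusted p = 1.21e-05). The water channel gene Aqp4 had 778, 820.1, 578 and 619 CPM in PAM 1 to 4, against 452, 418, 412 and 464 CPM in vehicle 1 to 4. Its PAM libraries were all higher than its vehicle libraries, with PAM 1 and PAM 2 highest, and the log2 fold change was 0.68 ± 0.12 (adjusted p = 4.55e-04).

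Mlc1 encodes a membrane protein of astrocyte junctions that is mutated in a human leukodystrophy, and its partner HepaCAM is an adhesion molecule. Mlc1 had 1115, 921, 957 and 717 CPM in PAM 1 to 4, against 634, 581, 527 and 542 CPM in vehicle 1 to 4, without overlap, at a log2 fold change of 0.70 ± 0.12 (edgeR with Benjamini-Hochberg adjustment, adjusted p = 4.84e-04). Hepacam had 70.5, 68, 65.2 and 52.6 CPM in PAM 1 to 4, against 53.7, 49.3, 36.6 and 53.7 CPM in vehicle 1 to 4. PAM 4 lay within the vehicle range, and Hepacam was not called (log2 fold change 0.41 ± 0.15, edgeR with Benjamini-Hochberg adjustment, adjusted p = 0.0664). It passed without PAM 4 (adjusted p = 0.019) and without both PAM 3 and PAM 4 (0.0089), over a range of 0.0089 to 0.216 in 17 alternatives.

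Among the metabolic enzymes, Pla2g7, Acsbg1 and Plpp3 rose and Glul and Aldh1l1 did not pass. Pla2g7, which encodes the enzyme that inactivates platelet-activating factor, had 193, 167, 140.5 and 158 CPM in PAM 1 to 4, against 79.9, 76, 79.8 and 62.4 CPM in vehicle 1 to 4. This was the largest increase of the set by its estimate, with no overlap, at a log2 fold change of 1.14 ± 0.13 (edgeR with Benjamini-Hochberg adjustment, adjusted p = 8.03e-06). Acsbg1, a gene for activation of long-chain fatty acids, had 456, 405, 430.1 and 327 CPM in PAM 1 to 4, against 241, 255, 252 and 240.4 CPM in vehicle 1 to 4. It was higher in every PAM library, by 0.71 ± 0.11 on the log2 scale. The lipid phosphatase gene Plpp3 had 154, 158, 126 and 129 CPM in PAM 1 to 4, against 118, 109, 112 and 95.8 CPM in vehicle 1 to 4. The groups did not overlap, and it rose by 0.39 ± 0.12, but the call ended without PAM 1, PAM 2, vehicle 2, vehicle 3 or vehicle 4 (adjusted p of 0.0105 to 0.11 over the 8 edgeR fits that leave out 1 library).

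Glul encodes glutamine synthetase, the enzyme that converts glutamate to glutamine in astrocytes. It had 1049, 912, 765 and 687 CPM in PAM 1 to 4, against 796, 877, 769 and 809.8 CPM in vehicle 1 to 4. PAM 1 and PAM 2 lay above, and PAM 3 and PAM 4 below, all vehicle libraries. The log2 fold change was 0.07 ± 0.12, with a 95% interval of -0.16 to 0.31, and the gene was not called (edgeR with Benjamini-Hochberg adjustment, adjusted p = 0.736). It was at -0.043 without PAM 1 and at 0.28 without both PAM 3 and PAM 4, where it passed (edgeR, adjusted p = 0.011, range 0.011 to 0.884 over 17 alternatives). Aldh1l1, at 30 ± 7.42 CPM in PAM and 23 ± 4.96 CPM in vehicle libraries, did not pass either (log2 fold change 0.38 ± 0.21, and 0.25 without both PAM 3 and PAM 4).

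Of the 5 surface receptor genes, Gpr37l1, Ntsr2 and S1pr1 rose. Gpr37l1, an orphan G protein-coupled receptor of astrocytes, had 369, 283, 317 and 249 CPM in PAM 1 to 4, against 134, 145, 131 and 149 CPM in vehicle 1 to 4. The lowest PAM library was above the highest vehicle library, at a log2 fold change of 1.12 ± 0.12 (edgeR with Benjamini-Hochberg adjustment, adjusted p = 6.61e-06), the smallest adjusted p of the set. The neurotensin receptor gene Ntsr2 had 238, 202, 240.4 and 231 CPM in PAM 1 to 4, against 124, 149, 147 and 148 CPM in vehicle 1 to 4. It rose by 0.68 ± 0.11 on the log2 scale, with PAM libraries close together. The sphingosine-1-phosphate receptor gene S1pr1 had 96.3, 94.2, 76.9 and 58.8 CPM in PAM 1 to 4, against 54.6, 48.2, 40.1 and 52.1 CPM in vehicle 1 to 4. It rose by 0.75 ± 0.16, with PAM 4 just above the highest vehicle library.

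Ednrb, for the endothelin B receptor, had the widest spread of the tested genes in PAM libraries, at 69.8, 78.3, 32.9 and 27 CPM in PAM 1 to 4, against 44.8, 27.5, 29.4 and 23.3 CPM in vehicle 1 to 4. PAM 1 and PAM 2 were above all vehicle libraries, whereas PAM 3 and PAM 4 lay among them. With all libraries it did not pass (log2 fold change 0.75 ± 0.30, edgeR with Benjamini-Hochberg adjustment, adjusted p = 0.102). Without both PAM 3 and PAM 4 it was at 1.26 and passed (edgeR, adjusted p = 4.01e-07, range 4.01e-07 to 0.258 over 17 alternatives), as it did without PAM 4 alone (0.00683). The growth factor receptor gene Fgfr3 had 86, 70.4, 61.6 and 40 CPM in PAM 1 to 4, against 41.5, 52, 49.8 and 59.5 CPM in vehicle 1 to 4. PAM 4 was below all vehicle libraries and the other 3 PAM libraries were above them. Fgfr3 was at 0.36 ± 0.19 (edgeR with Benjamini-Hochberg adjustment, adjusted p = 0.197) with all libraries, and at 0.52 without PAM 4 and 0.64 without both, where it passed (edgeR, adjusted p = 0.0154 and 0.00124, range 0.00124 to 0.546).

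Of the 7 mature genes for secreted and calcium-binding proteins, 6 rose. Cst3 (ENSRNOG00000005195; Rnor_6.0 chromosome 3, 143219686 to 143223615, minus strand) had 9356, 7927, 11894 and 13309.7 CPM in PAM 1 to 4, against 4291, 4908, 5362 and 4931 CPM in vehicle 1 to 4. The groups were far apart, with PAM 3 and PAM 4 highest, and the log2 fold change was 1.12 ± 0.13 (edgeR with Benjamini-Hochberg adjustment, adjusted p = 1.73e-05). Without both PAM 3 and PAM 4 it was 0.84. Apoe had 7130.2, 6005, 8725 and 8443 CPM in PAM 1 to 4, against 4082, 4155, 4782 and 4029 CPM in vehicle 1 to 4. All PAM libraries exceeded all vehicle libraries, at a log2 fold change of 0.83 ± 0.12.

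Clu, which encodes the extracellular chaperone clusterin, had 3106, 2422, 2578 and 2378 CPM in PAM 1 to 4, against 1691, 1650.2, 1555 and 1552 CPM in vehicle 1 to 4. It rose by 0.70 ± 0.10 on the log2 scale, without overlap. S100b, the gene of a calcium-binding protein that astrocytes secrete, had 1654, 1448, 1376 and 1416 CPM in PAM 1 to 4, against 820.1, 897, 823 and 882 CPM in vehicle 1 to 4. It rose by 0.78 ± 0.10, with all PAM libraries far above the vehicle libraries.

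Mfge8, whose product tags dying cells and debris for phagocytosis, had 292, 242, 324 and 359 CPM in PAM 1 to 4, against 225, 225, 228 and 215 CPM in vehicle 1 to 4. PAM 4 was highest, and Mfge8 rose by 0.44 ± 0.12 on the log2 scale. The change was 0.27 without both PAM 3 and PAM 4, and its call ended without vehicle 4 (edgeR, Benjamini-Hochberg adjusted p of 8.72e-04 to 0.0505 over the 8 fits without 1 library). Sparcl1, the gene of the synapse-organising protein hevin, had 1944, 2018, 1451 and 1312 CPM in PAM 1 to 4, against 1267, 1259.9, 1295 and 1279.5 CPM in vehicle 1 to 4. PAM 3 and PAM 4 were only slightly above the vehicle libraries, which lay close together. Its log2 fold change was 0.40 ± 0.12 with all libraries and 0.65 without PAM 3 and PAM 4, and its call ended in the fits without PAM 1, PAM 2 or any 1 vehicle library (edgeR, Benjamini-Hochberg adjusted p of 0.00158 to 0.101). The coagulation receptor gene F3 (tissue factor), at 62.2 ± 13.4 CPM in PAM and 52 ± 6.66 CPM in vehicle libraries, did not pass.

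The other 3 mature genes act inside the cell or at its membrane. Ndrg2, which encodes a cytoplasmic protein abundant in astrocytes, had 938, 888, 853 and 717 CPM in PAM 1 to 4, against 582, 634, 576 and 659 CPM in vehicle 1 to 4. Its groups did not overlap, at a log2 fold change of 0.47 ± 0.10. Ttyh1, for a membrane protein of the tweety family, had 749, 717, 625 and 638 CPM in PAM 1 to 4, against 556, 573, 524 and 583 CPM in vehicle 1 to 4. Its groups were separate by a narrow margin, and it rose by 0.29 ± 0.10 at an adjusted p of 0.0476 (edgeR, Benjamini-Hochberg), and its call ended without PAM 1, PAM 2 or any 1 vehicle library (0.0226 to 0.156 over the 8 fits). The glial transcription factor gene Sox9 had 55.5, 55.9, 47.6 and 51.6 CPM in PAM 1 to 4, against 36, 35.5, 47.9 and 46.3 CPM in vehicle 1 to 4. PAM 3 was below vehicle 3, and Sox9 did not pass (log2 fold change 0.35 ± 0.15, edgeR with Benjamini-Hochberg adjustment, adjusted p = 0.117). Without both PAM 3 and PAM 4, F3 and Sox9 passed (edgeR, adjusted p = 0.0359, range 0.0359 to 0.536, and 0.0438, range 0.0438 to 0.287, over 17 alternatives).

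The 7 tested genes that did not pass had log2 fold changes from 0.07 to 0.75, all positive. Their median vehicle level was 48.3 CPM, against 314 CPM for the 25 genes that passed.

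All 4 progenitor-like genes rose. Vim (ENSRNOG00000018087; Rnor_6.0 chromosome 17, 80882666 to 80891212, plus strand), the gene of the intermediate filament vimentin, had 2573, 1928, 1812 and 1811 CPM in PAM 1 to 4, against 1119, 1037, 803 and 883 CPM in vehicle 1 to 4. No PAM library overlapped the vehicle libraries, and PAM 1 was the highest of all 8. The log2 fold change was 1.08 ± 0.13 (edgeR with Benjamini-Hochberg adjustment, adjusted p = 1.73e-05). Nes, for the filament protein nestin of neural stem cells, had 60.6, 43.9, 57.8 and 91.9 CPM in PAM 1 to 4, against 32.3, 32.5, 37.3 and 31.4 CPM in vehicle 1 to 4. Each PAM library was above each vehicle library, with PAM 4 highest, at a log2 fold change of 0.92 ± 0.19 (adjusted p = 0.00218).

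Fabp7, the brain fatty acid binding protein gene of radial glia, had 1018, 1068, 1042 and 1184 CPM in PAM 1 to 4, against 694, 618, 680.3 and 595 CPM in vehicle 1 to 4. The groups did not overlap and both were narrow, at a log2 fold change of 0.74 ± 0.10 (edgeR with Benjamini-Hochberg adjustment, adjusted p = 4.61e-05). Sox2, a transcription factor gene of neural stem cells that astrocytes retain, had 158, 163, 139 and 148 CPM in PAM 1 to 4, against 132, 114, 93.3 and 117 CPM in vehicle 1 to 4. PAM libraries lay above vehicle libraries by a small margin, at a log2 fold change of 0.41 ± 0.12 (adjusted p = 0.0195). Its call ended without vehicle 2, vehicle 3 or vehicle 4 (edgeR, Benjamini-Hochberg adjusted p of 0.0132 to 0.0871 over the 8 fits without 1 library).

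The reactive genes moved in both directions. Gfap (ENSRNOG00000002919; Rnor_6.0 chromosome 10, 90990762 to 90999506, minus strand), the astrocyte filament gene, had 5197, 4066, 4886 and 4339.8 CPM in PAM 1 to 4, against 2855, 2862, 2927 and 2583 CPM in vehicle 1 to 4. The groups were separate and the log2 fold change was 0.72 ± 0.10 (edgeR with Benjamini-Hochberg adjustment, adjusted p = 7.03e-05). Lcn2 (ENSRNOG00000013973; Rnor_6.0 chromosome 3, 11414186 to 11417546, minus strand), which encodes a secreted protein that binds iron-carrying siderophores, had 166, 134, 169 and 90.9 CPM in PAM 1 to 4, against 351, 352, 291 and 261 CPM in vehicle 1 to 4. Every PAM library was below every vehicle library, with PAM 4 lowest. The log2 fold change was -1.16 ± 0.16 (edgeR with Benjamini-Hochberg adjustment, adjusted p = 8.13e-05), and over 17 alternatives it stayed between -1.31 and -1.01 with adjusted p of 1.89e-19 to 7.84e-04.

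Vcam1, an adhesion molecule gene for leukocyte binding, had 49.8, 49, 47.6 and 38.2 CPM in PAM 1 to 4, against 28, 30.6, 24.4 and 35.6 CPM in vehicle 1 to 4. PAM 4, the lowest PAM library, was above vehicle 4, the highest vehicle library, and the log2 fold change was 0.64 ± 0.17 (edgeR with Benjamini-Hochberg adjustment, adjusted p = 0.0104). Cd44, the gene of the hyaluronan receptor, had 84.1, 60.3, 35.9 and 55.9 CPM in PAM 1 to 4, against 36.9, 40.7, 40.4 and 34.3 CPM in vehicle 1 to 4. PAM 3 lay within the vehicle range and PAM 1 was the highest, at a log2 fold change of 0.64 ± 0.20 (adjusted p = 0.0312). Cd44 was at 0.41 without PAM 1, and its call ended there, in each fit without 1 vehicle library (edgeR, Benjamini-Hochberg adjusted p of 0.00383 to 0.152 over the 8 fits) and with limma-voom (0.0657).

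**Figure D3:**
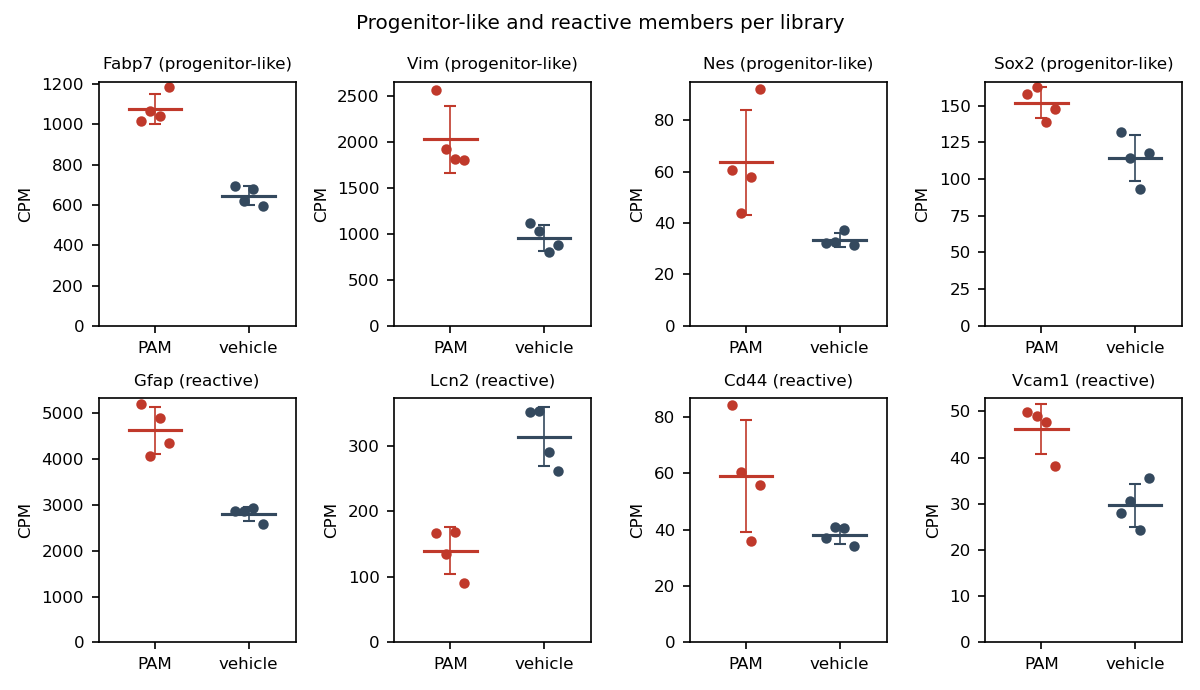
CPM of the 4 progenitor-like genes (upper row) and the 4 reactive genes (lower row), with 1 point per library, the group mean as a wide line and the SD as a bar (n = 4 PAM and 4 vehicle libraries). PAM points lie above vehicle points for all genes but Lcn2, which lies below, and Cd44, whose groups overlap.

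Whether members differed from each other in their response was tested for 6 pairs by the ratio of their counts within a library. None of the 6 passed after adjustment (exact two-sided permutation test of 4 PAM against 4 vehicle libraries, whose smallest possible p is 0.0286). With Benjamini-Hochberg adjustment over the 6 ratios, a lone ratio at that smallest p could not have passed. The test therefore cannot show that the members of a pair responded alike. Lcn2, the member that fell, was in none of the 6 pairs. The log2 ratio of Gfap to Vim was 1.20 ± 0.19 in PAM and 1.56 ± 0.22 in vehicle libraries, a difference of -0.36 (SD, n = 4 each; exact p = 0.0571, Benjamini-Hochberg adjusted p = 0.343 over the 6 ratios). PAM 3 was the only PAM library within the vehicle range. The differences for Nes to Vim, Fabp7 to Aqp4, Sox2 to Sox9 and Apoe to Clu were -0.20, 0.07, 0.06 and 0.12 (exact permutation p = 0.571, 0.657, 0.714 and 0.486, adjusted p = 0.714 for each). That of Gjb6 to Gja1, -0.99, rests on the few Gjb6 counts (exact permutation p = 0.429, adjusted p = 0.714). In particular the progenitor-like gene Fabp7 and the mature gene Aqp4 had a log2 ratio of 0.64 ± 0.30 in PAM and 0.57 ± 0.15 in vehicle libraries. Without both PAM 3 and PAM 4, the difference for Nes to Vim was -0.60 and that for Gjb6 to Gja1 was -0.19. The differences for Fabp7 to Aqp4 and Apoe to Clu were then -0.18 and -0.15.

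The PAM libraries did not show the members at one common level. Of the 32 tested genes 24 had a higher mean in PAM 1 and PAM 2 than in PAM 3 and PAM 4. In 18 both of the first were above both of the others, most of all in Ednrb, Cd44, Fgfr3, Sparcl1 and S1pr1. The opposite order, with PAM 3 and PAM 4 both higher, was seen in 3 genes, Cst3, Apoe and Mfge8. PAM 1 had the highest of the 4 PAM values in 17 genes, and PAM 4 had the lowest in 15. The matching shares over all tested genes were not computed, so these counts are not shown to be particular to the members. The median coefficient of variation of the 32 genes was 16.5% over PAM and 8.30% over vehicle libraries, and 26 genes varied more over PAM libraries. No such values were computed over all tested genes. Chi-square values per degree of freedom, taken over genes in general, were 4.36 to 14.8 between PAM and 2.77 to 4.11 between vehicle libraries. Across the 32 genes, the difference between the pairs of libraries had a Spearman correlation of 0.25 with exonic length, a description over genes that share the same 4 libraries. With each library's length trend removed, 24 of the 32 genes rose and Lcn2 fell. In that fit 1025 of 11740 tested genes rose (8.73%) and 1143 fell.

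**Figure D4:**
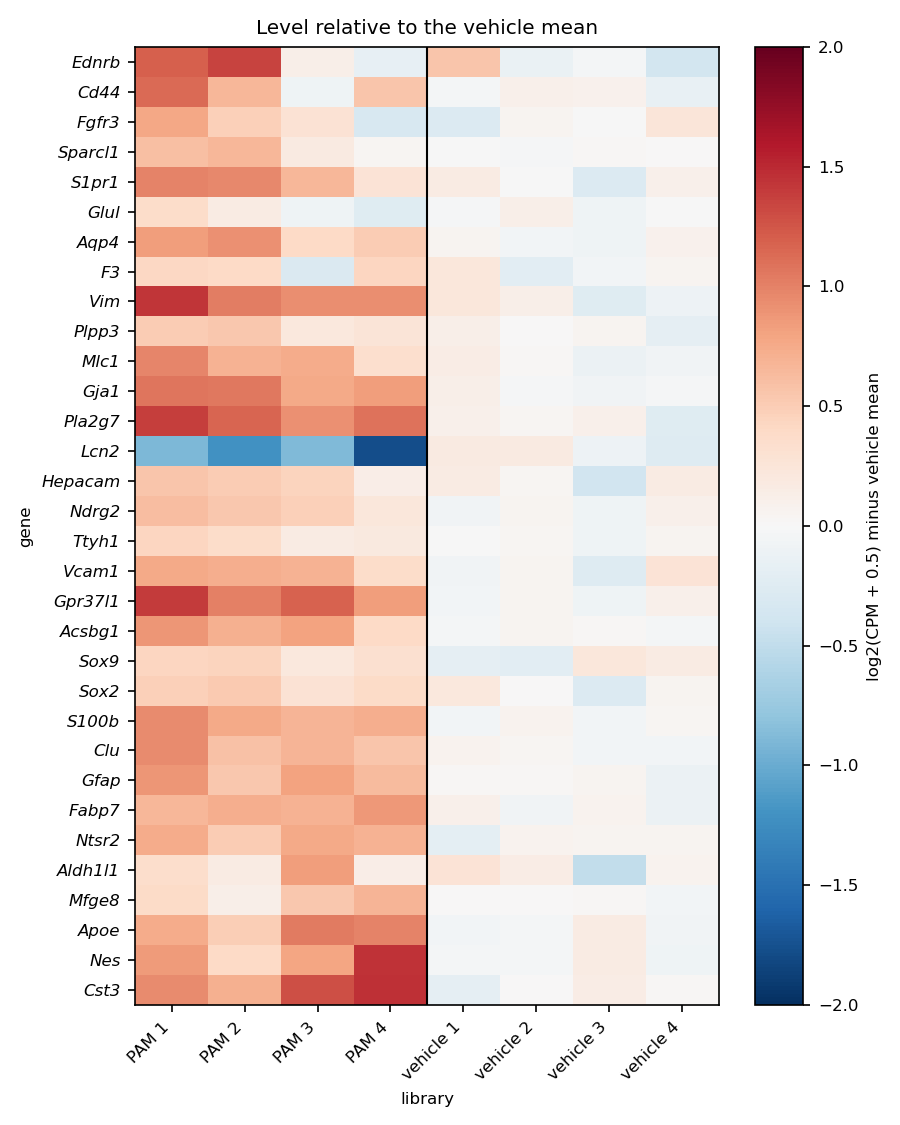
Each cell is the log2 level of a gene (CPM plus 0.5) in 1 library minus its mean over the 4 vehicle libraries, with PAM libraries left of the line. Genes run from those highest in PAM 1 and PAM 2 (top, Ednrb) to those highest in PAM 3 and PAM 4 (bottom, Cst3); Lcn2 is the row below 0 in all 4 PAM libraries.

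The proximal promoters of 6 members are shown because these genes carry the results: the largest increase (Pla2g7), the most abundant gene (Cst3), the main connexin gene (Gja1), the filament genes Vim and Gfap, and Lcn2, the one that fell. Each holds 250 bases before and 50 after the gene's start in RefSeq on GRCr8, a different build from the counts. Letters in capitals match 1 of 6 motifs searched on both strands: the TATA box (TATAAA), STAT (TTCNNNGAA), AP-1 (TGANTCA), the SOX core (ACAAT), the nuclear factor I half-site (TTGGC) and NF-kB (GGG, any 2 bases, then TTTCC).
Pla2g7 (chr9:24901698-24901997, minus strand): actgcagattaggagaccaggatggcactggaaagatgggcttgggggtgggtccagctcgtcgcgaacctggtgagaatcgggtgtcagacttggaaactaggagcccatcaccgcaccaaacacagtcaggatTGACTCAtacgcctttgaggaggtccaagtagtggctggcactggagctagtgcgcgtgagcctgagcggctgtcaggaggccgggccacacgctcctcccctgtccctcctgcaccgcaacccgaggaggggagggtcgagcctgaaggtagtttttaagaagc
Cst3 (chr3:156793888-156794187, minus strand): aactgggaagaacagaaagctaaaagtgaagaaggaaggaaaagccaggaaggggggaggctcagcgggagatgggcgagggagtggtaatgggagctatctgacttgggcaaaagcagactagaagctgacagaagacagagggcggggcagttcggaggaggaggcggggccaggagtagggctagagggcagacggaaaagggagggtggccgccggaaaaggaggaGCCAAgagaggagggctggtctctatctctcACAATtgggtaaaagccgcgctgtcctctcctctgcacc
Gja1 (chr20:36302314-36302613, plus strand): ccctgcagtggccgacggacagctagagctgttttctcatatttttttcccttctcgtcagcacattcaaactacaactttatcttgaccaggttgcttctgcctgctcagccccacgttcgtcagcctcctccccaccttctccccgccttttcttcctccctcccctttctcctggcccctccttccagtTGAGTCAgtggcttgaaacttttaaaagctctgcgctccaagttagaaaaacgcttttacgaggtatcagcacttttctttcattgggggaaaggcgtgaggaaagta
Vim (chr17:81577011-81577310, plus strand): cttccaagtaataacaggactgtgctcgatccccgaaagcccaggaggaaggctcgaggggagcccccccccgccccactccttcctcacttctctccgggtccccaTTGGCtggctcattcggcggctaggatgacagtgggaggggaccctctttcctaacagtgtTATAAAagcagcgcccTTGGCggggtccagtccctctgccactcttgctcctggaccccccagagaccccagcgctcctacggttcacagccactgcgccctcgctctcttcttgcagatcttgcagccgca
Gfap (chr10:88361612-88361911, minus strand): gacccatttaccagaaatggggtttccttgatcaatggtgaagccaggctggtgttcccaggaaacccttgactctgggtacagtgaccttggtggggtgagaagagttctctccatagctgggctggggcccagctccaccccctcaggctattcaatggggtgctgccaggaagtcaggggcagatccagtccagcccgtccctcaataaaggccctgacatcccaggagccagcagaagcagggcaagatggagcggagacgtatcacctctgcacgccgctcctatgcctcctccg
Lcn2 (chr3:36081731-36082030, minus strand): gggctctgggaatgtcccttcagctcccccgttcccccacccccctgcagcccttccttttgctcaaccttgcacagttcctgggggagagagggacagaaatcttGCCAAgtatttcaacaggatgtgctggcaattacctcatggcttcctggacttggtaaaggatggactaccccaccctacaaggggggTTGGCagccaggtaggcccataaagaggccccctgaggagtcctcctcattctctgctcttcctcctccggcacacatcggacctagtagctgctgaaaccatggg

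In these windows Pla2g7 and Gja1 hold an AP-1 match, 115 and 58 bases before the start. Vim holds a TATA box 82 bases before the start with a nuclear factor I half-site on either side of it, and Lcn2 holds 2 such half-sites. Gfap has a match to none of the 6. RefSeq promoters were found for 30 of the 33 members, with 37 entries. The nuclear factor I half-site was in 62.2% of these entries and in 45.8% of all 33469 promoters of this length. The AP-1 motif was in 5.41% and 7.33%, STAT in 5.41% and 8.87%, the SOX core in 16.2% and 33.7%, and the TATA box in 8.11% and 14.2%. No member entry held the NF-kB motif, which 1.53% of all promoters held. Among all member entries, 1 pair of matches overlapped, a pair of TATA boxes on opposite strands in Vcam1. Such matches describe the letters of these windows and do not show that a factor binds.

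The lists that follow hold other genes of the same cells, some of them on more than 1 list. Their counts stand beside 9.00% of all tested genes that rose and 9.89% that fell. Of 12 genes for astrocyte transporters and potassium handling, 5 rose and 1 fell, with a median log2 fold change of 0.26, and 3 rose in the fits without PAM 1, vehicle 1, vehicle 2 or vehicle 3. With both PAM 3 and PAM 4 left out, 6 rose and 0 fell, at a median of 0.46. Slc25a18, a mitochondrial glutamate carrier gene, rose by 1.73 ± 0.17 on the log2 scale, at 98.4 ± 19.6 CPM in PAM and 29.6 ± 5.19 CPM in vehicle libraries. The thyroid hormone and organic anion transporter gene Slco1c1 rose by 1.53 ± 0.16, and the sodium pump subunit gene Atp1b2 by 0.38 ± 0.11. The 1 that fell, the GABA transporter gene Slc6a11, was at 8.99 ± 5.65 CPM in PAM and 19.5 ± 3.23 CPM in vehicle libraries. Its call ended without PAM 3 or any 1 vehicle library (edgeR, Benjamini-Hochberg adjusted p of 0.00755 to 0.122). Slc6a11 was at -0.50 without both PAM 3 and PAM 4, where it was not called either (edgeR, adjusted p = 0.168). The call of Atp1b2 ended without PAM 1, vehicle 1, vehicle 2 or vehicle 3 (edgeR, adjusted p of 0.00196 to 0.0893). The main astrocyte glutamate transporter genes did not pass: Slc1a3 (GLAST) was at 1108 ± 211 CPM in PAM and 972 ± 77.8 CPM in vehicle libraries, and Slc1a2 (GLT-1) at 25.4 ± 5.57 CPM in PAM and 21.1 ± 4.67 CPM in vehicle libraries. Slc1a3 passed without both PAM 3 and PAM 4 (log2 fold change 0.42, edgeR, adjusted p = 1.58e-04), and not in the fits without 1 library (0.0779 to 0.619).

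Further reactive genes were taken from published rodent astrocyte profiling. Of 7 tested pan-reactive genes, those raised after both stroke and endotoxin in mice, 5 rose and 0 fell, with a median log2 fold change of 0.88. This list left out the members. It therefore does not count the members classed here as reactive: Lcn2, which fell, and Gfap, Cd44 and Vcam1, which rose. Nor does it count Vim, which rose and was classed here as progenitor-like. Timp1, an inhibitor of matrix proteases, was at 165 ± 33 CPM in PAM and 86.4 ± 8.81 CPM in vehicle libraries, a log2 fold change of 0.93 ± 0.14. Hspb1, a small heat shock protein gene, rose by 1.46 ± 0.24, the sphingosine-1-phosphate receptor gene S1pr3 by 0.88 ± 0.15 and the protease inhibitor gene Serpina3n by 1.33 ± 0.32. Of 8 tested genes of the A1 set, linked to endotoxin, 3 rose (Gbp2, Ugt1a1 and Serping1) and 1 fell, the adhesion gene Amigo2 at -1.60 ± 0.21. The calls of Ugt1a1 and Serping1 ended without PAM 1, PAM 2, vehicle 2, vehicle 3 or vehicle 4, and that of Serping1 also without PAM 3 or vehicle 1 (edgeR, Benjamini-Hochberg adjusted p of 0.00634 to 0.115 and 3.03e-04 to 0.139 over the 8 fits without 1 library), which left 1 of the 8 A1 genes higher in the fits without PAM 1, PAM 2, vehicle 2, vehicle 3 or vehicle 4. The complement gene C3, often used to mark A1 astrocytes, was at 59.4 ± 36.5 CPM in PAM and 27.2 ± 7.44 CPM in vehicle libraries and was not called (edgeR, adjusted p = 0.0787 after Benjamini-Hochberg). C3 was at 1.63 without both PAM 3 and PAM 4, where it passed (edgeR, adjusted p = 2.60e-07), as it did without PAM 4 alone (range 6.39e-05 to 0.198 over the fits without 1 library). Of 8 tested genes of the A2 set, linked to ischaemia, Cd109 and S100a10 rose and 0 fell, and S100a10 was at 0.60 ± 0.14 with all libraries and 0.34 without both PAM 3 and PAM 4. The medians of the A1 and A2 sets were 0.39 and 0.54, against 0.02 over all tested genes, and 0.62 and 0.56 without both PAM 3 and PAM 4.

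Of 12 radial glia and neural stem cell genes, 5 rose and 1 fell, with a median log2 fold change of 0.56. Fam107a and Hopx, which mark outer radial glia in the human cortex, rose by 1.49 ± 0.15 and 1.37 ± 0.21. Prom1, a stem cell surface protein gene also found in ependymal cells, was at 13.1 ± 6.74 CPM in PAM and 3.43 ± 1.04 CPM in vehicle libraries. The Notch target gene Hes5, which fell, was at 1.13 ± 0.862 CPM in PAM and 4.46 ± 1.06 CPM in vehicle libraries, near the depth limit in PAM libraries. Its call ended without PAM 2, PAM 3, vehicle 2, vehicle 3 or vehicle 4 (edgeR, Benjamini-Hochberg adjusted p of 0.0311 to 0.104), and without both PAM 3 and PAM 4 (0.0858). Without both PAM 3 and PAM 4, 8 of the 12 genes rose and 0 fell, and without PAM 1, vehicle 2, vehicle 3 or vehicle 4 only 3 rose.

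Markers of other cells moved in the same libraries, where 9.00% of all tested genes rose and 9.89% fell. Neuron markers summed to 4631 to 5322 CPM in PAM and 6079 to 6870.1 CPM in vehicle libraries, and 5 of 11 tested fell, with 0 higher (7 fell without both PAM 3 and PAM 4). Tubb3, a tubulin gene of neurons, was at 375 ± 56.5 CPM in PAM and 668 ± 92.8 CPM in vehicle libraries, and Slc17a7, for a vesicular glutamate transporter, at 784 ± 75.7 CPM in PAM and 1234 ± 83 CPM in vehicle libraries. Ependymal and choroid plexus markers summed to 160.1 to 248 CPM in PAM and 42.3 to 59.4 CPM in vehicle libraries, and all 6 tested rose, among them the cilia genes Dynlrb2 at 2.10 ± 0.26 and Rsph1 at 1.85 ± 0.26 on the log2 scale. Oligodendrocyte lineage markers summed to 1350.2 to 1759 CPM in PAM and 958 to 1071 CPM in vehicle libraries, with 5 of 10 higher and 1 lower (0 lower without PAM 1, PAM 3, vehicle 1 or vehicle 2, or without both PAM 3 and PAM 4). Cell division genes summed to 420.0 to 582 CPM in PAM and 202 to 249 CPM in vehicle libraries, with 8 of 10 higher, and 5 without vehicle 4. Fibroblast and mural cell markers overlapped between groups, at 134 to 245 CPM in PAM and 96.6 to 151 CPM in vehicle libraries, with the collagen genes Col1a1 and Col3a1 higher among 5 tested. Col3a1 was not called without both PAM 3 and PAM 4 (edgeR, Benjamini-Hochberg adjusted p = 0.167), and the list's median was then 0.65, against 0.11 with all libraries. Microglia markers, of which 7 of 12 were matched and 3 tested, summed to 24.9 to 35 CPM in PAM and 29.2 to 67.6 CPM in vehicle libraries, and 0 passed in edgeR, DESeq2 or limma-voom. By edgeR 1 of the 3, C1qb, was under an unadjusted p of 0.05, at a log2 fold change of -0.73, and Trem2 was at 0 in 3 of the 8 libraries. Only 2 of 7 endothelial markers were matched, and the 1 tested, Kdr, rose, at 16.6 ± 4.5 CPM in PAM and 8.69 ± 2.62 CPM in vehicle libraries, and was not called without PAM 2, vehicle 2 or vehicle 3 (edgeR, Benjamini-Hochberg adjusted p of 0.0244 to 0.103). The part of these other cells in the members' differences was not tested.

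**Figure D5:**
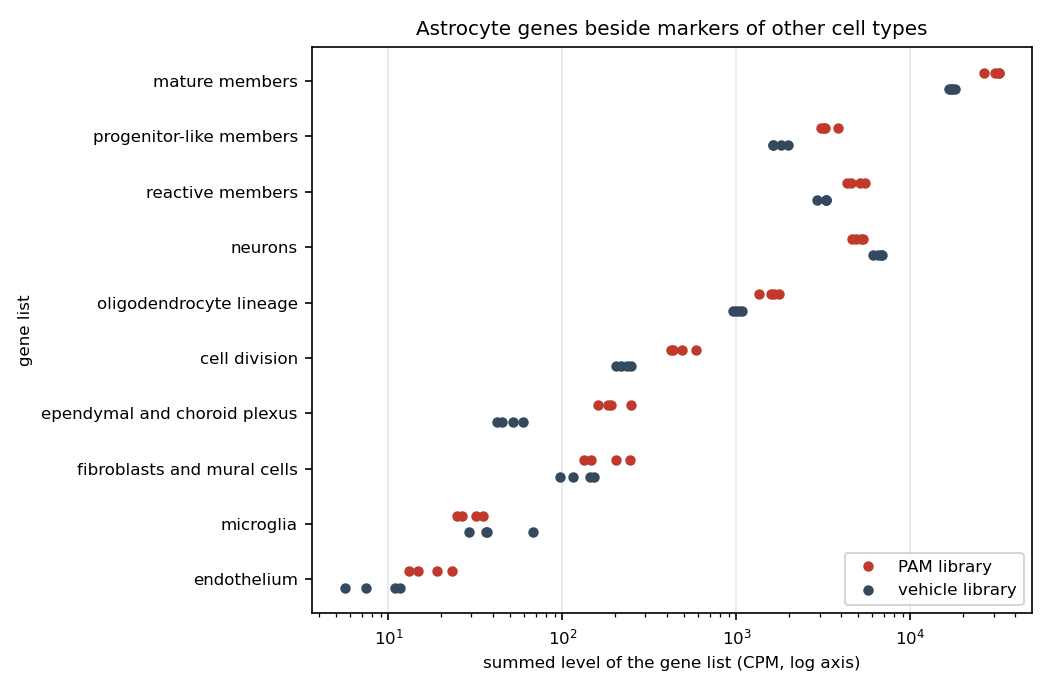
Summed CPM of the 3 member classes and of markers of other cell types, on a log axis, with 1 point per library (PAM above vehicle in each row). PAM libraries lie right of vehicle libraries for the 3 member classes and left of them for neurons. They also lie right for ependymal and choroid plexus, oligodendrocyte lineage, cell division and endothelial markers. The groups overlap for microglia and for fibroblast and mural cell markers.

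The authors' deposited table, with its own fold changes and adjusted p-values, calls 24 of the 33 members higher and 1 lower, against 8.44% and 8.97% of its 13739 identifiers. For the 32 tested genes its calls at 0.05 were the same as those above, and log2 fold changes differed by at most 0.02. In the authors' deposited table Gjb6 has an adjusted p of 1.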

How the data were processed

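Per the file headers, the authors deposited for each library a table of counts (whole numbers) by Ensembl gene, with exon positions and exonic lengths, as featureCounts writes it. The submitters' processing notes name STAR, featureCounts, DESeq, DESeq2 and Rnor_6.0 without version or role. The annotation release, the strand setting and the handling of reads with several matches were not stated. A further table that the authors deposited gives, per the file headers, group means (signal values of scaled counts), log2 fold changes and p-values, and pairs 13739 identifiers with symbols.

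The comparison used edgeR 4.0.16 in R 4.3.3: filterByExpr (11740 genes kept), TMM scaling and the robust quasi-likelihood F test with no covariate, called at a Benjamini-Hochberg adjusted p under 0.05. "Rose" and "fell" mark such calls. SE is the fold change divided by the root of F. At 2960406 to 4389430 counts per library the biological coefficient of variation was 17.7%. Chi-square values per degree of freedom between replicates, 2.77 to 14.8, exceeded sampling noise, and no library was treated as a duplicate. Within-library ratios used counts plus 0.5. The procedure was tested on simulated data.

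Members, classes and gene lists were chosen with earlier results of these data known. All members are named, and of other lists up to 4 genes with the smallest p, of which 1 is not reported here. Slc1a2, Slc1a3, Slc6a11, C3 and Trem2 were added after their values were seen. The alternatives were DESeq2 1.42.0, limma-voom (limma 3.58.1), RLE and upper-quartile scaling, other filters on low counts, the replicate number as a block, removal of the length trend, and omission of libraries. Those for the other lists were added after seeing the data.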

Additional observations from a re-analysis of the deposited data

Results flagged for a closer look

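In 4 of 66 sets of 4 libraries (33 genes in 2 groups), 1 library stood far from the other 3 by its gap relative to the whole range. Chance alone flags about 1 in 20 such sets. The tissue factor gene F3 was at 42.2 CPM in PAM 3, against 68.4 to 69.6 CPM in the other PAM libraries. Vim was at 2573 CPM in PAM 1, against 1811 to 1928 CPM in the others. The receptor gene Ntsr2 was at 124 CPM in vehicle 1, against 147 to 149 CPM in the other vehicle libraries. Apoe was at 4782 CPM in vehicle 3, against 4029 to 4155 CPM in the others. Vim, Ntsr2 and Apoe passed the test in every fit that left out 1 library, and F3 in none.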

How the results depend on the processing

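Of the 25 called genes 19 kept their call and direction in all 17 alternatives, and the other 6 (Plpp3, Mfge8, Sparcl1, Ttyh1, Sox2 and Cd44) lost it in at least 1. Over the 32 genes and 17 alternatives, 502 of 544 values kept direction and side of the threshold, 30 lost the call, 11 gained it and 1 changed sign. Leaving out 1 library gave 18 to 27 genes higher and 1 lower, against 5.90% to 9.73% of all tested genes higher in those fits. The median of the progenitor-like genes was 0.69 to 0.90 when 1 library was left out, lowest without PAM 4, and 0.68 when PAM 3 and PAM 4 were both omitted. Glul was at -0.043 without PAM 1. The log2 ratio of Fabp7 to Aqp4 was -0.025 to 0.16 without 1 library and -0.18 without both PAM 3 and PAM 4, that of Sox2 to Sox9 was -0.10 to 0.20 without 1 library, and that of Apoe to Clu was -0.15 without both. The cause of these changes was not tested. Between PAM and vehicle libraries of the same replicate number, deviations from the group mean had correlations of -0.06 to 0.07 over the 4 pairs. These few pairs cannot settle whether the replicate number marks a pairing, which the labels do not state. With the replicate block 24 genes rose and 1 fell, Ednrb passing and Ttyh1 not. In that fit 954 of 11740 tested genes rose (8.13%) and 1110 fell. For the other gene lists, 49 of 209 counts differed by more than 1.5 times from those with all libraries. Depth limits Gjb6, at 0 to 7 counts per library.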

Other observations

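Genes of glial transcription factors and cytokine signalling, other than the members, held 1 family that rose together. All 4 listed Id genes, inhibitors of basic helix-loop-helix transcription factors and targets of BMP signalling, rose, with log2 fold changes of 1.29 ± 0.22 for Id1, 0.46 ± 0.14 for Id2, 1.91 ± 0.40 for Id3 and 1.14 ± 0.14 for Id4. Id3 was at 37.1 ± 19.8 CPM in PAM and 9.83 ± 4.71 CPM in vehicle libraries (SD, n = 4 each). Over this list of 16 tested genes 4 rose and 1, Hes5, fell, with a median log2 fold change of 0.04, against 9.00% and 9.89% of all tested genes (edgeR, Benjamini-Hochberg adjusted p under 0.05). Without both PAM 3 and PAM 4, 7 rose and 0 fell, with a median of 0.46, and Hes5 was not called (edgeR, Benjamini-Hochberg adjusted p = 0.0858, and 0.0311 to 0.104 over the 8 fits without 1 library). The call of Id2 ended without PAM 1, PAM 2, vehicle 2 or vehicle 3 (adjusted p of 0.0097 to 0.0965 over the 8 fits without 1 library).

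Of 10 tested genes for synapse-organising and matricellular proteins that astrocytes secrete, 3 rose and 0 fell, with a median of 0.36. The count was 8 and the median 0.62 without both PAM 3 and PAM 4. Tnc, the tenascin-C gene, rose by 0.61 ± 0.19, the growth factor gene Tgfb2 by 0.55 ± 0.18 and the proteoglycan gene Bcan by 0.33 ± 0.11 on the log2 scale. Each of these 3 calls ended when 1 of several libraries was left out (edgeR, Benjamini-Hochberg adjusted p of 0.0139 to 0.131, 0.0374 to 0.117 and 0.00209 to 0.147 over the 8 fits), and 0 to 4 genes of the list rose in those fits. Bcan was at 0.51 without both PAM 3 and PAM 4. Chrdl1, which encodes a BMP antagonist that astrocytes secrete to mature synapses in mice, was at 10.4 ± 3.31 CPM in PAM and 4.79 ± 2.44 CPM in vehicle libraries and did not pass (log2 fold change 1.13 ± 0.40, edgeR with Benjamini-Hochberg adjustment, adjusted p = 0.0579). It passed without both PAM 3 and PAM 4 (log2 fold change 1.41, edgeR, adjusted p = 0.00655) and in 2 of the 8 fits without 1 library (adjusted p of 0.0356 to 0.153).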
